A study of Mus musculus with 8 samples.

Results

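The E2F transcription factors and their DP partners switch on or hold down the genes that carry a cell from G1 into DNA replication. The data bear on the genes that encode these factors: E2f1 to E2f8, Tfdp1 and Tfdp2, 10 of the 21887 protein-coding genes of the RefSeq table for GRCm38.p6, whose primary assembly is mm10. Each gene was searched in 6 lists of chromatin immunoprecipitation (ChIP-seq) peaks for a peak inside it or within 1 kb of its start or end. The genes were sorted by their textbook roles into activators (E2f1, E2f2, E2f3), repressors (E2f4, E2f5, E2f6), atypical members (E2f7, E2f8) and DP genes (Tfdp1, Tfdp2).

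The cells were C2C12, a mouse myoblast line that stops dividing and fuses into myotubes when serum is withdrawn. Differentiation was started with 2% horse serum, and cells were harvested at times labelled 14 h and 34 h, although the growth protocol names 24 h as the earlier time. At each time 3 libraries came from immunoprecipitation (IP) with a polyclonal rabbit antibody to APOBEC2, a muscle-enriched member of the AID/APOBEC deaminase family, and 1 library was made from input chromatin. The names of all 6 peak lists carry the tag GFPsh, which the labels do not explain. All libraries came from 1 cell line, and the labels do not say that the replicates were separate cultures, so the p-values below measure only the spread between libraries. None of Myod1, Myf5, Myog, Des and Mymk, 5 genes that mark myoblasts or differentiating muscle cells, had a peak in any library. Peak lists measure no expression, so this is no check of the cells.

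Most E2F proteins bind DNA as a dimer with a DP protein, encoded by Tfdp1 or Tfdp2. In a resting cell the pocket proteins Rb1, Rbl1 and Rbl2 hold E2F at its target promoters in an inactive or repressive state. Cyclin-dependent kinases release E2f1, E2f2 and E2f3 to activate genes of DNA replication. E2f4 and E2f5 act mainly with pocket proteins, and E2f6 acts with a Polycomb complex. E2f7 and E2f8 bind DNA without a DP partner and repress E2F targets, among them other E2F genes. When myoblasts differentiate, the pocket proteins keep E2F targets silent as the cells leave the cell cycle.

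The promoter stretches of 5 of the genes show what lay under or beside the summits, the positions of highest signal within a peak. They come from the RefSeq promoter table for GRCm38.p6, run 5′ to 3′ on the strand of the gene, and stop at the annotated 5′ end. Capitals mark matches to an E2F consensus, searched as TTTCCCGC, TTTCGCGC, TTTGCCGC and TTTGGCGC on both strands, and to the cell cycle genes homology region (CHR), searched as TTTGAA. E2f3, E2f7 and Tfdp1 are shown as the genes with a peak in 5 or 6 libraries whose stretch reached or adjoined the summits. E2f2 had a peak in 1 library and E2f6 in none. The stretches lie at chr13:29986065-29986313 on the minus strand for E2f3 and, on the plus strand, at chr10:110745189-110745438 for E2f7, chr8:13338501-13338724 for Tfdp1, chr4:136172024-136172273 for E2f2 and chr12:16810715-16810908 for E2f6.
E2f3: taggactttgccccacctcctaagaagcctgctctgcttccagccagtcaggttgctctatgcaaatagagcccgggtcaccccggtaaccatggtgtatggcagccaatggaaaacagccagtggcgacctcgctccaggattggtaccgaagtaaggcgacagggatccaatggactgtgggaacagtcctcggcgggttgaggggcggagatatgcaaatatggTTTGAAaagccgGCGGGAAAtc
E2f7: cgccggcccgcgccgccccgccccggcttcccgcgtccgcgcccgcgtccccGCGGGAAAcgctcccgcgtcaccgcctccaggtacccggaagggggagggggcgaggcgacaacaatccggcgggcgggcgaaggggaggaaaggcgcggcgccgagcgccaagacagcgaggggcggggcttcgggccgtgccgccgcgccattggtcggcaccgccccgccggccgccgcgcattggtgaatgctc
Tfdp1: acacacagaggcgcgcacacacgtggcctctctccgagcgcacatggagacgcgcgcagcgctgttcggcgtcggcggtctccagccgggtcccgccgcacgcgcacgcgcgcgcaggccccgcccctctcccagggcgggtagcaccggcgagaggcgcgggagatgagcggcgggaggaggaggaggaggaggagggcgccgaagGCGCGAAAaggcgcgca
E2f2: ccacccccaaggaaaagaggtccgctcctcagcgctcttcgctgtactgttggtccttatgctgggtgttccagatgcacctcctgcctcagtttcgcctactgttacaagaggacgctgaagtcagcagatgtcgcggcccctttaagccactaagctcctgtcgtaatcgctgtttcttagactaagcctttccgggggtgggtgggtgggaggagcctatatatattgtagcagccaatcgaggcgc
E2f6: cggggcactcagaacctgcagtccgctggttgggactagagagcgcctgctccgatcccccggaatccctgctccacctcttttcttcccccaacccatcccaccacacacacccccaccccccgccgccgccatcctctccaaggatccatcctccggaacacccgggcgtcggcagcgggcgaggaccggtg

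In E2f3 the CHR match occupied bases 228 to 233 of the stretch, at chr13:29986081-29986086, and the 6 strongest summits of the gene lay between positions 29986076 and 29986091. The E2F match of E2f3 stood on the other strand at bases 240 to 247, nearer to the gene, and did not overlap the CHR match. The E2F match of E2f7 at bases 53 to 60 had its centre at -211 to -145 bp from its summits, negative meaning upstream. The E2F match of Tfdp1 at bases 208 to 215 was centred 2 to 61 bp downstream of its summits. E2f2 held no match of either kind in the stretch, but TTTGGCGC stood 39 to 46 bases after its annotated start. E2f6 held none. A match of letters is a description and no evidence of a bound factor.

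In the order of replicates 1 to 3, the authors listed 768, 1327 and 797 peaks for 14 h and 2209, 5025 and 1068 for 34 h. A rough relative depth, set to 1 for replicate 1 at 14 h, was 0.985 to 1.17. It was the lowest background of a list, solved from fold and p, over the width of its narrowest peak. It thus rests on 1 background and 1 width per list and does not replace read totals, which were not known. Median counts at the summit were 19 to 24 fragments. The least significant peak of a list had a −log10 q between 1.58 and 2.90, so the lists ended at unequal thresholds. No library with a control antibody or from cells lacking APOBEC2 was used here, so the background of the antibody itself was not measured. A gene without a listed peak had none past the caller's threshold and is not shown to be unbound.

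At 14 h, 4, 8 and 5 of the 10 E2F and DP genes had a peak in replicates 1, 2 and 3, where 3.72%, 6.5% and 3.97% of all protein-coding genes had one. At 34 h the counts were 7, 7 and 3, against 9.24%, 18.1% and 4.7% of all genes. The count of E2F and DP genes was lowest in replicate 3 at 34 h, whose list was the shortest of that time, and highest in replicate 2 at 14 h, whose list was the longest of that time. E2f3, E2f7 and E2f8 had a peak in all 6 libraries, as had 2.26% of all genes. E2f4 and E2f6 had none in any library, as had 79.8% of all genes.

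A gene was counted as having a region at a time if 2 or more of that time's 3 libraries listed a peak. By that count 5 of 10 genes had a region at 14 h (E2f1, E2f3, E2f7, E2f8 and Tfdp1), where 4.27% of all genes did. At 34 h 7 of 10 had one, where 9.01% of all genes did, and the additional genes were E2f5 and Tfdp2. A region at 34 h but not 14 h was listed for 5.51% of all genes, and one at 14 h but not 34 h for 0.768% of all genes and for 0 of the 10. Activators had a region in 2 of 3 cases at both times, repressors in 0 of 3 at 14 h and 1 of 3 at 34 h, atypical members in 2 of 2 at both times, and DP genes in 1 of 2 and then 2 of 2. Over pairs of a gene and a library, a peak was listed for 12 of 12 pairs of atypical members, 11 of 18 pairs of activators (61.1%), 8 of 12 pairs of DP genes (66.7%) and 3 of 18 pairs of repressors (16.7%). Of all protein-coding genes, 3.72% to 18.1% had a peak, depending on the library. With 2 or 3 genes in a class the class shares are descriptions, and the differences between classes were not tested. The count at 34 h depended on the lists. With the 768 peaks of highest −log10 p taken from each list it was 4 of 10, where 3.16% of all genes had a region. Without replicate 1 or without replicate 2 it was 3 of 10, for which no share of all genes was counted.

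**Figure D1:**
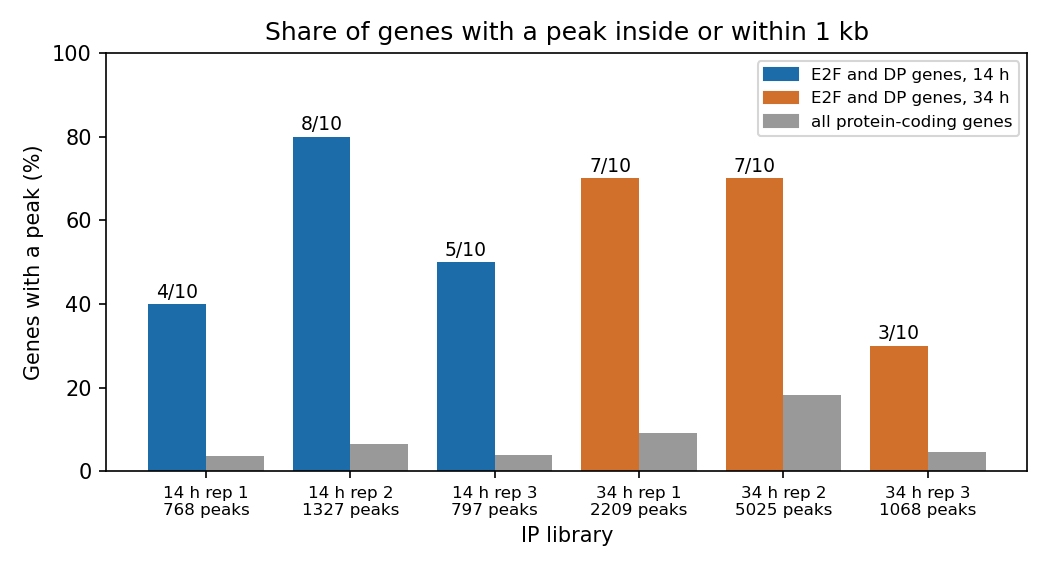
Bars give the percent of genes with a peak inside the gene or within 1 kb, by library, for the 10 E2F and DP genes and for all 21887 protein-coding genes. The E2F and DP genes lie above all genes in each of the 6 libraries, from 3 of 10 in replicate 3 at 34 h to 8 of 10 in replicate 2 at 14 h.

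Among the activators, E2f3, which drives S-phase entry and is itself under E2F control, carried the strongest peak of the family in every library. Its fold, the authors' linear ratio of fragments at the summit plus 1 to local background plus 1, was 30.6, 49.6 and 37.8 in the 14 h libraries and 18.7, 27.2 and 16.9 in the 34 h libraries. The means were 39.3 ± 9.57 (SD, n = 3) and 20.9 ± 5.49 (SD, n = 3). All 3 values of 14 h lay above all 3 of 34 h, as they did for 33.9% of the 495 genes with a peak in all 6 libraries. The peak of E2f3 ranked 11 of 768, 6 of 1327 and 5 of 797 by −log10 p at 14 h, and 19 of 2209, 7 of 5025 and 13 of 1068 at 34 h. In each library its fold was 2.19 to 3.90 times that of the next gene of the family, which was E2f7 in 4 libraries, E2f8 in replicate 2 at 14 h and E2f5 in replicate 1 at 34 h. The exact 95% Poisson intervals of the summit fragments, which cover counting error only, did not overlap between E2f3 and that next gene in any library. At 34 h in replicate 3, the library with the smallest ratio, they were 51.0 to 84.0 fragments for E2f3 and 13.8 to 33.3 for E2f7.

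E2f1, the activator that also takes part in apoptosis, had a peak in 4 libraries. Its fold was 9.28 and 8.16 in replicates 2 and 3 at 14 h and 5.69 and 7.09 in replicates 1 and 2 at 34 h. None was listed in replicate 1 at 14 h or replicate 3 at 34 h. The listed values of the times did not overlap, with 2 libraries each. Of the 495 genes with a peak in all 6 libraries, 33.9% had all 34 h folds below all 14 h folds. E2f1 is not among those 495, and no such share was counted for genes with fewer peaks. E2f2, the remaining activator, had its only peak in the second 14 h replicate, with a fold of 6.78 on 13 fragments. By −log10 p, the family's activators therefore ranged from a peak among the first 19 of each list to a single peak ranked 1060 of 1327.

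Repressor genes were the class with fewest peaks. E2f5, whose protein pairs with Rbl1 and Rbl2, had a fold of 8.12 and 10.1 in replicates 1 and 2 at 34 h and of 5.66 in replicate 2 at 14 h. The listed 34 h values lay above the single listed 14 h value, the reverse of the order in E2f3 and the order also seen in Tfdp2. No share of all genes with such an order was counted. E2f4, which carries much of the E2F binding in resting cells, had no peak in any of the 6 lists. E2f6, which represses without a pocket protein, had none either.

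**Figure D2:**
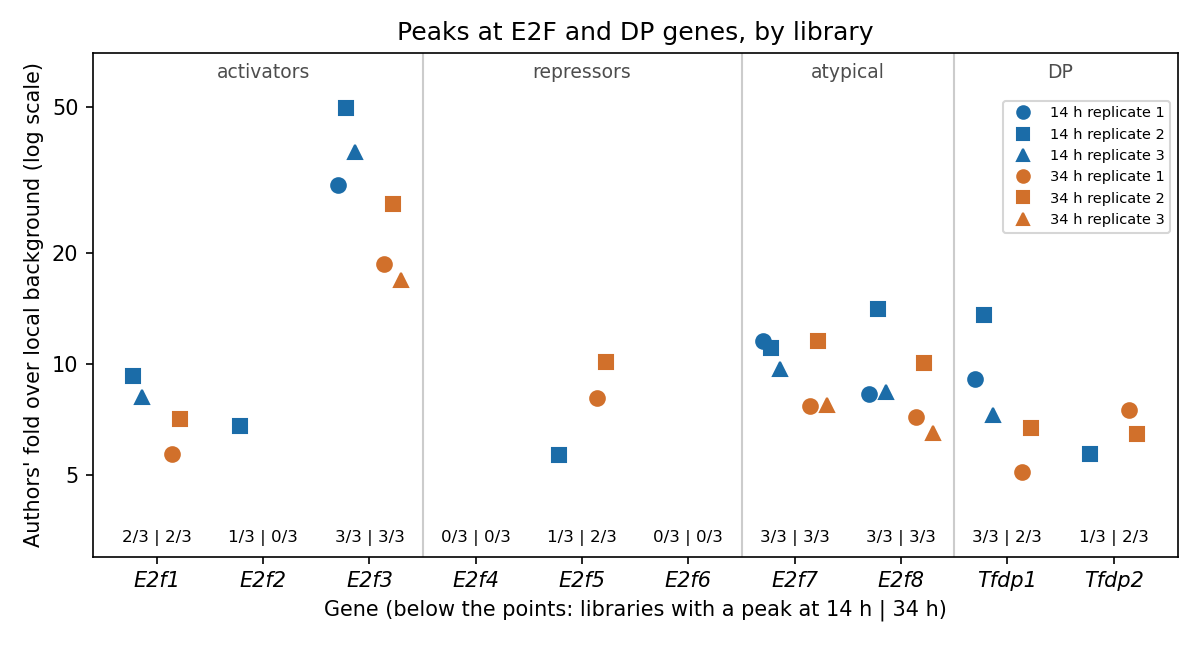
Fold at the summit of the strongest peak of each E2F and DP gene, on a log axis, for the 6 libraries. Point colour gives the time and shape the replicate, and genes without a peak in a library have no point; E2f3 lies above all others in every library, and E2f4 and E2f6 have no point.

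Both atypical genes had a peak in every library. E2f7, a repressor of G1/S genes, had a fold of 11.5, 11.1 and 9.70 at 14 h and of 7.73, 11.5 and 7.73 at 34 h. The means were 10.8 ± 0.955 (SD, n = 3) and 8.99 ± 2.2 (SD, n = 3), and the times overlapped. E2f8, its close paralogue, had a fold of 8.33, 14.1 and 8.39 at 14 h and of 7.21, 10.1 and 6.53 at 34 h. Its means were 10.3 ± 3.31 (SD, n = 3) and 7.94 ± 1.88 (SD, n = 3), and the times overlapped here too. E2f7 and E2f8 were within each other's spread at both times.

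Of the DP genes, Tfdp1, which encodes the main dimer partner, had a fold of 9.13, 13.6 and 7.30 at 14 h. At 34 h it was 5.09 and 6.72 in replicates 1 and 2, and no peak was listed in replicate 3. The listed 34 h values lay below all 14 h values. Of the 495 genes with a peak in all 6 libraries, 33.9% had all 34 h folds below all 14 h folds. Tfdp1 is not among those 495 either, and no such share was counted for genes with fewer peaks. Tfdp2, which encodes the other partner, had a fold of 5.71 in replicate 2 at 14 h and of 7.51 and 6.48 in replicates 1 and 2 at 34 h. E2f5 and Tfdp2 thus had the same libraries with a peak. At 14 h a peak in replicate 2 and in no other library was listed for 2.26% of all genes. At 34 h a peak in replicates 1 and 2 but not 3 was listed for 4.49%.

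All 39 peaks of these genes had their summit within 1 kb of the annotated 5′ boundary of the gene, or, for E2f5, of its lower boundary, since its strand was not used. Over all protein-coding genes, 7112 of 9147 peaks with a summit in or near a gene (77.8%) had it within 1 kb of either boundary. With peaks counted at boundaries alone, the regions were again 5 of 10 at 14 h, beside 3.87% of all genes, and 7 of 10 at 34 h, beside 7.36%. The strongest summits of E2f3, a gene at chr13:29906575-29986064, lay 12 to 27 bp upstream of its 5′ end and within 15 bp of each other over the 6 libraries. A weak additional peak was listed in replicate 1 at 34 h, 525 bp upstream, with a fold of 4.24. The E2f3 peak was 418 ± 56.0 bp wide (SD, n = 3) at 14 h and 631 ± 72.4 bp wide (SD, n = 3) at 34 h, while peaks of the other genes were 139 to 460 bp wide. Width follows how far the signal stays above the caller's threshold and was not tested between times.

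Summits of E2f7 (chr10:110745439-110787384) spread from 50 bp upstream to 16 bp inside the gene. Those of Tfdp1 (chr8:13338725-13378448) lay 16 to 75 bp upstream, and the strongest of E2f1 (chr2:154559400-154569892) 4 to 102 bp inside. E2f1 had another peak in replicate 2 at 34 h, 399 bp inside, with a fold of 6.34. The E2f2 summit (gene at chr4:136172274-136196057) was 115 bp inside. Summits of E2f5 (chr3:14578602-14606309) lay 25 to 81 bp inside its lower boundary, and those of Tfdp2 (chr9:96196246-96323646) from 73 bp upstream to 29 bp inside. E2f4 (chr8:105297663-105305370) and E2f6 (chr12:16810909-16826752) had no summit to place.

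E2f8 (chr7:48866429-48882073) differed in position. Its main summits lay 813 to 902 bp inside the annotated 5′ boundary, which is 336 to 425 bp downstream of the start that the RefSeq promoter table gives. A second peak was listed in replicates 1 and 2 at 14 h and replicate 2 at 34 h, with summits 71 to 118 bp upstream of that start. The folds of the second peak were 6.89, 6.93 and 7.05, below the main peak of the same library in each case. The lncRNA gene Gm2788 (chr7:48881300-48886608) overlaps the peaks of E2f8, and LOC115486422 lies within 1 kb of them, so these peaks cannot be assigned to E2f8 alone.

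**Figure D3:**
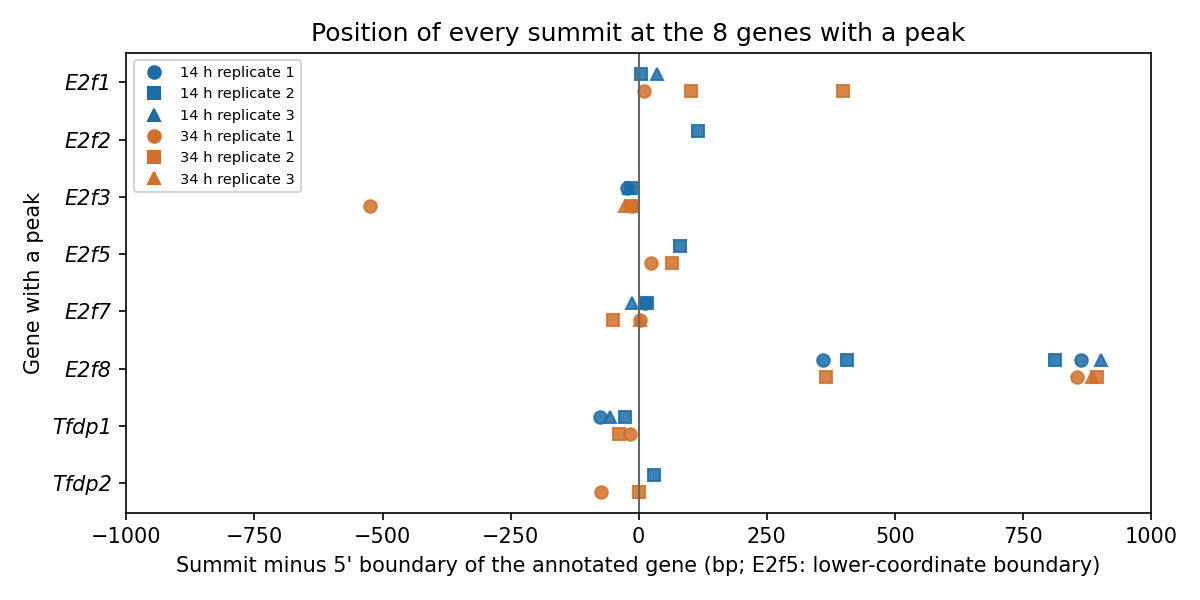
Distance of each summit from the annotated 5′ boundary of its gene in bp, positive inside the gene, by gene, with points for the peaks of the 6 libraries. The strongest summits of E2f3 fall within 15 bp of each other, while the main summits of E2f8 lie 813 to 902 bp inside the gene.

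Whether the peaks of these genes differed between 14 h and 34 h was asked over libraries. For presence of a peak, an exact two-sided permutation test of 3 against 3 libraries gave p = 1.0 (Benjamini-Hochberg adjusted p = 1.0 over 4415 genes) for each of the 8 genes with any peak. With 3 against 3 the smallest p possible is 0.1, so no gene could pass 0.05, and 0 of 4415 genes had an unadjusted p under 0.05. Full separation, with a peak in each 14 h library and no 34 h library or the reverse, was seen in 5.32% of those genes and in 0 of the 8. No second tool was run for presence.

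Ranks were compared in lists cut to equal length, the 768 peaks of highest −log10 p of each library. E2f3 held ranks 11, 6 and 5 at 14 h and 19, 7 and 13 at 34 h, means of 7.33 ± 3.21 and 13.0 ± 6.0 (SD, n = 3 each). The ranges overlapped (exact two-sided permutation p = 0.2, adjusted p = 0.542 over 390 genes). E2f7 held ranks 243, 451 and 293 at 14 h and 592, 392 and 336 at 34 h, means of 329 ± 109 and 440 ± 135 (SD, n = 3 each). They overlapped as well (exact two-sided permutation p = 0.4, adjusted p = 0.693). Ranks did not overlap between times for 23.8% of the 390 genes with a peak in all 6 shortened lists.

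In the shortened lists 5 of 10 genes had a region at 14 h, beside 3.76% of all genes. E2f8 was left in 5 shortened lists. Tfdp1 was left in all 3 lists of 14 h and none of 34 h (exact two-sided permutation p = 0.1, the smallest possible, adjusted p = 1.0). The same separation was seen in 4.66% of the 1568 genes with a peak in any shortened list. E2f1 was left in 2 lists of 14 h only, E2f5 in 2 of 34 h only, Tfdp2 in 1 of 34 h, and E2f2 in none.

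The fold of a peak is (fragments at the summit + 1) / (local background + 1), and each pair of fold and p-value in the lists gives both numbers. Because 1 is added to both, a difference between low backgrounds enters the fold in reduced size. They were compared for the genes with a peak in all 6 libraries, a comparison chosen after the values were seen. For E2f3 the summit held 67, 138 and 87 fragments at 14 h and 81, 125 and 66 at 34 h. The means were 97.3 ± 36.6 and 90.7 ± 30.7 (SD, n = 3 each), a ratio of 0.932, and the times overlapped (exact two-sided permutation p = 0.7). The background at the E2f3 summit was 1.22, 1.80 and 1.33 fragments at 14 h and 3.38, 3.64 and 2.96 at 34 h. These means, 1.45 ± 0.310 and 3.33 ± 0.339 (SD, n = 3 each), differed 2.29-fold and the times did not overlap (exact two-sided permutation p = 0.1, the smallest possible, adjusted p = 0.137 over 495 genes). The 3 backgrounds of a time were called against 1 input, so they are not independent. Their SD and p cannot measure a spread between replicates of the background. With 1 added, as it enters the fold, the mean background of E2f3 differed 1.77-fold. Of the 495 genes, 69.3% likewise had a higher background in all 34 h libraries, and fragments separated the times in few of them (all higher at 34 h in 1.82%, all lower in 1.41%).

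The atypical genes gave smaller differences. E2f7 had 25, 27 and 28 summit fragments at 14 h and 21, 36 and 22 at 34 h (exact two-sided permutation p = 1.0). Its background was 1.25, 1.53 and 1.99 at 14 h and 1.85, 2.21 and 1.98 at 34 h, a ratio of 1.26 with overlap (exact two-sided permutation p = 0.3, adjusted p = 0.356). E2f8 had 17, 33 and 18 fragments at 14 h and 18, 28 and 16 at 34 h (exact two-sided permutation p = 0.7). Its background was 1.16, 1.41 and 1.26 at 14 h and 1.63, 1.88 and 1.61 at 34 h, a ratio of 1.33 with no overlap (exact two-sided permutation p = 0.1, adjusted p = 0.137). The p-values of background in both genes have the same limit, since each time had 1 input.

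Over the 495 genes with a peak in all 6 libraries, the median ratio of 34 h to 14 h was 0.945 for fragments, 1.56 for background and 0.731 for fold. The fold ratios were 0.532 for E2f3, 0.836 for E2f7 and 0.773 for E2f8. Background was lower in all 34 h libraries than in all 14 h libraries for 3.84% of the 495 genes. All 3 libraries of a time were called against 1 input, per the names of the lists, so the background term and the input of that time cannot be told apart.

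**Figure D4:**
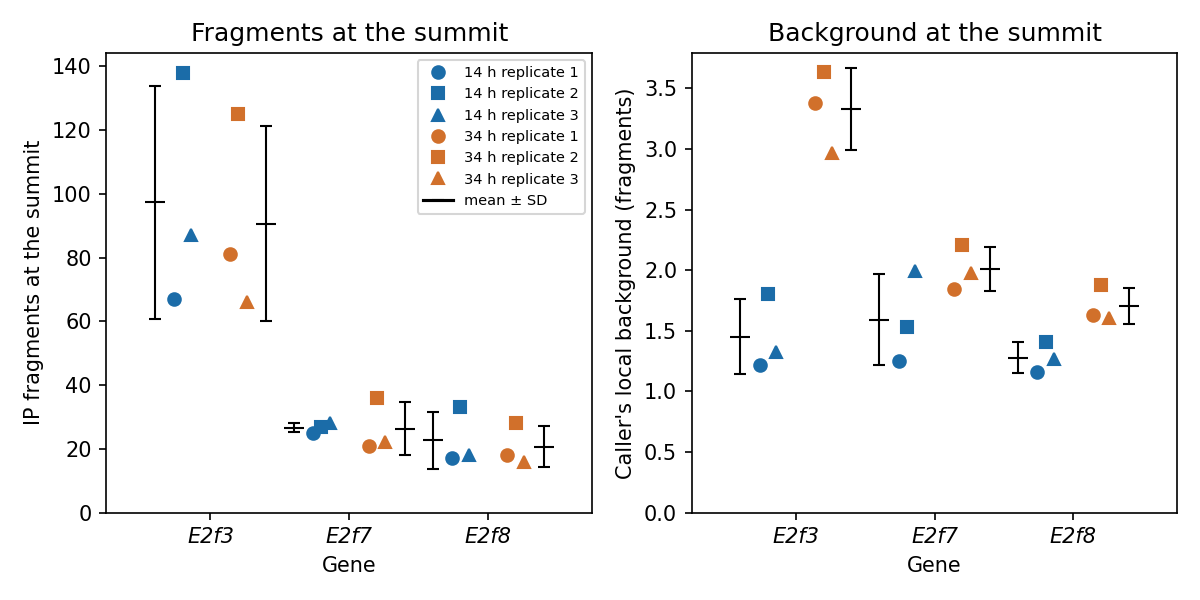
Fragments at the summit and background at the summit, both in fragments, for E2f3, E2f7 and E2f8 in the 3 libraries of each time. Points are libraries, and horizontal ticks with whiskers are means ± SD; fragments overlap between times in all 3 genes, while the background of E2f3 is 1.22 to 1.80 at 14 h and 2.96 to 3.64 at 34 h. The backgrounds of a time share 1 input and are not independent.

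The genes most like E2f3 in their folds over the 6 libraries were sought by Euclidean distance on the log2 scale among 492 genes with a peak in all 6 libraries. The nearest was Plk1, a kinase of mitosis, at a distance of 0.18, with folds of 29.8, 46.0 and 37.2 at 14 h and 18.9, 28.7 and 15.6 at 34 h. Clspn, which encodes the checkpoint adaptor claspin, followed at 0.37, and Iqgap3 at 0.54. The mean folds of these 3 genes were 36.2 to 37.7 at 14 h and 19.1 to 21.4 at 34 h, beside 39.3 and 20.9 for E2f3. All the points share the same 6 libraries, and the distance is a description.

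The rest of the pathway was described with 4 lists. A list of 9 genes held the pocket proteins and the MuvB complex, which together repress cell cycle genes in resting cells, and also Mybl2. Among these 9, a region was present in 5 at 14 h and in 6 at 34 h, beside the 4.27% and 9.01% of all genes. All 9 had a peak in at least 1 library, while 79.8% of all genes had none. In lists of equal length the counts were 4 at 14 h and 3 at 34 h, beside 3.76% and 3.16% of all genes. Highest by mean fold at 14 h were the MuvB subunit Lin9 (41.1 ± 4.60), the MuvB-binding factor Mybl2 (33.7 ± 4.19) and the pocket protein Rbl1 (12.2 ± 2.27; SD, n = 3 each). At 34 h they were Lin9 (20.0 ± 7.60), Mybl2 (17.3 ± 3.76) and the DNA-binding subunit Lin54 (9.38 ± 2.70; SD, n = 3 each). Lin9 and E2f3 were within each other's spread at both times.

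Upstream of the pocket proteins, 3 of 15 G1 cyclins, kinases and kinase inhibitors held a region at 14 h and 2 of 15 did at 34 h, and 8 of 15 had no peak in any library. The shares of all genes were 4.27%, 9.01% and 79.8%. The 34 h count was 5 of 15 with a window of 5 kb, beside 10.3% of all genes, and 6 of 15 with any library accepted, beside 19.1%. Those with a region at 14 h were the inhibitor Cdkn2d at 21.6 ± 7.35, the cyclin Ccne1 at 14.3 ± 4.11 and the inhibitor Cdkn2c at 12.4 ± 4.72 (SD, n = 3 each). At 34 h they were Cdkn2c at 9.14 ± 1.56 and Cdkn2d at 8.91 ± 1.72 (SD, n = 3 each). The genes with no peak were Ccnd1, Ccnd2, Cdk6, Cdk2, Cdkn1a, Cdkn1c, Cdkn2a and Cdkn2b. Cdkn1a encodes the inhibitor p21, which rises when myoblasts differentiate.

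Downstream, 15 of 18 textbook E2F target genes of the G1/S transition held a region at 14 h, as did 14 of 18 at 34 h. The shares of all genes were 4.27% and 9.01%. All 18 had a peak in at least 1 library, while 79.8% of all genes had none. The ribonucleotide reductase subunit Rrm2 had the highest mean fold at both times, 44.7 ± 14.3 at 14 h and 23.8 ± 7.27 at 34 h (SD, n = 3 in both). It was followed at 14 h by the replicative helicase subunits Mcm3 (23.4 ± 4.27) and Mcm4 (14.9 ± 5.77; SD, n = 3 each). At 34 h it was followed by Rrm1, the other reductase subunit (13.0 ± 2.54), and Mcm3 (12.9 ± 4.31; SD, n = 3 each). In lists of equal length the 34 h count was 9 of 18, beside 3.16% of all genes.

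Of 10 genes for partners of E2F6 in the Polycomb complex PRC1.6, the count with a region was 1 at 14 h and 3 at 34 h, and 6 had no peak in any library. The shares of all genes were again 4.27%, 9.01% and 79.8%. L3mbtl2, a chromatin-binding subunit, had a fold of 8.96 ± 2.29 at 14 h and 5.00 ± 0.664 at 34 h (SD, n = 3 in both). Cbx3, a heterochromatin protein, had a fold of 8.98 ± 2.51 at 34 h, when Yaf2 also had a region. In lists of equal length the 34 h count was 1 of 10, beside 3.16% of all genes.

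Matches to the E2F consensus stood in 5 of 12 promoter windows of 8 of the genes (250 bases before to 50 after a start), namely in windows of E2f2, E2f3, E2f7 and Tfdp1. They were 4 distinct sites, since 2 overlapping windows of Tfdp1 held the same one. Over all 21238 windows of the table, 2.85% held one. Among windows with a summit in at least 2 of 3 libraries, 22.4% of 540 did at 14 h and 14.4% of 1036 at 34 h. The CHR letters stood in 3 of 12 windows, of E2f2, E2f3 and E2f8, beside 16.0% of all windows, 29.8% of those with a summit at 14 h and 20.8% at 34 h. The CHR match of E2f2 was in the window of a start at position 136180782, while its only summit lay at 136172389. An E2F match and a CHR match in the same window, as in E2f3, were present in 0.348% of all windows, 5.56% of those with a summit at 14 h and 3.28% at 34 h. The windows of E2f3, E2f7 and Tfdp1 that held an E2F match also held a summit in 6, 6 and 5 libraries. The E2F match of E2f7 itself lay outside the listed peak in replicates 1 and 3 at 14 h and replicate 3 at 34 h. The window of E2f8 held the second summit in 3 libraries but not the main one, and that of E2f1 held a summit in 1 library. Neither window of Tfdp2, more than 62 kb from its peaks, and neither of E2f2 held a summit. The windows of E2f1, E2f2, E2f8 and Tfdp2 therefore do not show the sequence at most of their summits, and nothing is read from their motifs.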

How the data were processed

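The data were peak and summit lists for 6 anti-APOBEC2 IP libraries of C2C12 cells, 3 at 14 h and 3 at 34 h. Groups and replicate numbers came from the titles. The authors aligned reads with Subread and called peaks with MACS2 on mm10, per the submitters' processing notes. For both tools the version, and for MACS2 the threshold, was not given in the sources used here. Per the names of the deposited lists, calling was done per IP library, with the input of the same time as control. The 2 inputs entered only in that way and were not analysed on their own. The fold, as deposited by the authors, is the linear ratio of summit fragments plus 1 to background plus 1, a form under which all listed p-values were recovered. The deposited lists also give −log10 p-values, −log10 q-values and an integer score, and the summit lists repeat the −log10 q as a score.

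Read totals are not in the lists. Summit fragments and background were solved from fold and p for 100% of peaks, to within 0.001 on the −log10 p scale. Peaks were assigned to genes of the RefSeq table (GRCm38.p6) with at least 1 bp of overlap with the gene widened by 1 kb. Exons, introns and UTRs were not separated. Promoter windows matched 8 of 10 genes. Presence, ranks and summit fragments were compared by exact two-sided permutation over libraries, with Benjamini-Hochberg adjustment over all genes and a threshold of 0.05. The scripts were tested on simulated data. Intervals are exact Poisson intervals at 95%, for counting error only.

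The genes and lists were chosen with earlier results of these data known. Named were all 10 genes, the 3 genes most like E2f3 (peak in most libraries, tied with E2f7 and E2f8 and taken by its highest mean fold), the 3 of highest mean fold per pathway list and time, and genes sharing a peak with a member. Other genes without a peak and Yaf2 were named after their values were seen. Alternatives tried were a minimum −log10 q of 5, lists of 768 peaks, windows of 0 and 5 kb, gene boundaries only, summit instead of peak, any or all 3 libraries, rank by fold, each library left out and a replicate block. Python 3.11.15, pandas 2.3.3, numpy 2.4.6, scipy 1.17.1 and matplotlib 3.10.9 were used.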

Additional observations from a re-analysis of the deposited data

How the results depend on the processing

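Counts of E2F and DP genes with a region, in all and by class, kept within 1.5 times of the reported value with a −log10 q of at least 5, a window of 0 or 5 kb, boundaries only and the summit in place of the peak. Lists of 768 peaks lowered the 34 h counts to 4 of 10 genes, 1 activator and 0 DP genes, and left Tfdp1 present at 14 h and not at 34 h, so that 1 gene reached the smallest p of 0.1. Requiring all 3 libraries gave 1 activator at 14 h. For 34 h this rule gave 3 genes in all, 1 activator, 0 repressors and 0 DP genes. The matching shares of all genes were 2.96% (14 h) and 3.95% (34 h). Accepting any library gave 8 genes, 3 activators, 1 repressor and 2 DP genes at 14 h, where 6.96% of all genes had a region. With each library left out and both others required, the counts at 14 h ranged from 4 to 5 genes and 1 to 2 activators. At 34 h they ranged from 3 (without replicate 1 or 2) to 7 (without replicate 3), with 1 to 2 activators, 0 to 1 repressors and 0 to 2 DP genes. No share of all genes was counted with a library left out. The ranks of E2f3 separated the times when ordered by fold (exact permutation p = 0.1, adjusted p = 0.302), 1 gene in place of 0. With a library left out the ranks of 0 to 1 genes did, at adjusted p of 0.51 to 0.951 over E2f3 and E2f7. In the main ranking 23.8% of 390 genes separated, and shares under the other rank settings were not counted. The difference in summit fragments, 34 h minus 14 h, changed sign with single libraries left out and ranged from -23.8 to 13.7 for E2f3, from -5.17 to 2.33 for E2f7 and from -5.67 to 3.17 for E2f8. It was 13.7 for E2f3 without 14 h replicate 2 and 5.67 without 34 h replicate 3. For E2f7 it was 0.333, 2.33 and 1.83 without 14 h replicate 3, 34 h replicate 1 and 34 h replicate 3. For E2f8 it was 3.17 and 0.333 without 14 h replicate 2 and 34 h replicate 3. The cause was not tested. The labels do not say whether replicate numbers pair the libraries. Correlations of deviations over 495 genes were 0.0111, 0.117 and 0.0154 for equal numbers and -0.0814 to 0.0653 for unequal ones. Such weak values cannot decide whether the libraries were paired. A replicate block, whose smallest p is 0.25, gave exact p = 1.0 for presence in each of the 8 genes, 0.25 for the rank of E2f3 (adjusted 0.682) and 0.75 for that of E2f7 (adjusted 0.897), and changed no call. Summits of these genes stood on 13 to 138 fragments, so the weakest peaks rest on few fragments. The lowest count was that of E2f2, with a −log10 q of 6.88 in a list that ended at 1.66. It ranked 1060 of 1327 by −log10 p, above E2f5 (1178) and Tfdp2 (1152) in the same list.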

Other observations

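Other letters in the promoter windows were counted on both strands. CCAAT stood in 38.2% of all 21238 windows, in 58.5% of windows with a summit at 14 h and in 64.8% at 34 h, and E2f3, E2f7, E2f8 and E2f2 held it. The GC box GGGCGG stood in 46.2%, 76.1% and 74.9%, and the E-box CANNTG, the letters bound by myogenic factors such as Myod1, in 69.0%, 52.2% and 54.7%. The median GC content of the windows was 56.3%, 62.5% and 61%, and the median number of CpG was 13, 26 and 24, so base composition moved with these shares. Its part in the motif shares, those of the E2F consensus included, was not tested.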
